A study of Mus musculus with 8 samples.

Results

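The genes described here are 4 connexins, Gja4, Gja5, Gja1 and Gjc1, and the pannexin Panx1, found by gene symbol in 8 tables of brain endothelial RNA. They are 5 of 24394 symbols shared by all tables. The set was chosen by gene family with the linear values of YAPTAZ-ECKO and WT libraries in view, and Gja4 leads it because its values differed without overlap. Differences of the members between groups are therefore given as a description of these libraries, with no test.

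The RNA came from endothelial cells of the mouse brain, sorted by FACS on postnatal day 8. Of the 8 libraries, 4 were labelled YAPTAZ-ECKO, from mice with VE-cadherin-CreERT2 together with the floxed alleles Yapf/f and Tazf/f, and 4 were labelled WT, the wild type. The Cre is driven by the promoter of an endothelial cadherin and is active only in the presence of tamoxifen, and the floxed genes encode YAP and TAZ, transcriptional co-activators of the Hippo pathway. All libraries are given the strain C57BL/6J, and the WT label names neither the Cre nor the floxed alleles, so effects of the Cre or of tamoxifen and those of the deletion cannot be told apart. Nothing says that the libraries came from separate mice, so the spread between them may be technical. The question set by the design is how endothelial transcripts differ where YAP and TAZ are deleted.

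Connexins are proteins that cross the membrane 4 times and assemble into rings. A ring in one cell docks with a ring in its neighbour to form a gap junction, through which ions and small molecules pass directly between the cells. In vessels these channels carry electrical and chemical signals along the wall. Gja4 encodes connexin 37 and Gja5 connexin 40, both known from arterial endothelium. Gja1 encodes connexin 43, also made by smooth muscle cells and, in brain, by astrocytes. Gjc1 encodes connexin 45, found in developing vessels and smooth muscle. Panx1 encodes pannexin 1, which resembles connexins in fold but mostly forms channels to the outside of the cell that release ATP.

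Gja4 (ENSMUSG00000050234.7) lies on chromosome 4 from 127311421 to 127314039 on the minus strand of GRCm38, with 1 annotated transcript of 1685 bases in 2 exons. Gja1 (ENSMUSG00000050953.10) lies on chromosome 10 from 56377330 to 56402513 on the plus strand, and Gjc1 (ENSMUSG00000034520.14) on chromosome 11 from 102799579 to 102819700 on the minus strand. Gja5 (ENSMUSG00000057123.14) lies on chromosome 3 from 96904693 to 97077416 on the plus strand and is the only member that overlaps other annotated genes, among them Gpr89 on the opposite strand. Panx1 (ENSMUSG00000031934.14) lies on chromosome 9 from 15002128 to 15045478 on the minus strand.

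The bases before the annotated start of Gja4, the member with the clearest difference, and of Gja1, whose values hardly differed, are shown because YAP and TAZ reach DNA through TEAD factors, whose core motif is GGAATG. Both are taken from RefSeq on GRCm38.p6 and cover 250 bases upstream of the start, read 5′ to 3′ on the gene's own strand, with any TEAD match in capitals.
Gja4, chr4:127314040-127314289, minus strand: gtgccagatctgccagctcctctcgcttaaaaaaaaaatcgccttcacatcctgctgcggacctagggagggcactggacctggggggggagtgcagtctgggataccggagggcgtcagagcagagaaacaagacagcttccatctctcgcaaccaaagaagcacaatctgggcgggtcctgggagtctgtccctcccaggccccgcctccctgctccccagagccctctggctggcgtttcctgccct
Gja1, chr10:56377050-56377299, plus strand: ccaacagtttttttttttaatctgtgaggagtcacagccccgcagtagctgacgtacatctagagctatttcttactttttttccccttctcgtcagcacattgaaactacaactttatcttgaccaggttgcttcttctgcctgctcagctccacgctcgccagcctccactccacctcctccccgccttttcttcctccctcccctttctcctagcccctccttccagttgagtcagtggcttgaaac
Neither GGAATG nor its reverse complement CATTCC occurs in these windows or in those of Gja5 and Panx1, so 0 of the 4 members with an entry hold the motif, against 12.6% of 32851 RefSeq promoters of the same length. The upstream bases of Gja4 are 61.2% G or C and those of Gja1 50%. With the motif in 12.6% of all promoters, a set of 4 would often hold 0, so the 0 here is no sign of depletion. The absence of these letters says nothing about more distant sites.

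Values are scaled reads, that is read counts brought to a common library size and returned from the deposited log2 scale, with a listed 0 kept at 0. Library totals were 10.3 M to 10.9 M scaled reads (M, mega), and the spacing of low values implied 6.76 M to 16.8 M counted reads. YAPTAZ-ECKO 1 had the fewest implied reads and the fewest symbols above 0, 7538 against 8408 to 9720 in the other libraries. Transcripts of the targeted genes were lower in all 4 YAPTAZ-ECKO libraries than in any WT library. Yap1 stood at 9.29, 605, 293 and 402 scaled reads in YAPTAZ-ECKO 1 to 4, against 2833, 1726, 1409 and 1887 in WT 1 to 4. Wwtr1, the gene for TAZ, stood at 348, 2608, 1261 and 1124 in YAPTAZ-ECKO 1 to 4, against 8220, 5906, 6756 and 5650 in WT 1 to 4. By limma over all tested genes the fall of Wwtr1 passed (Benjamini-Hochberg adjusted p = 0.0113) and Yap1 did not (adjusted p = 0.175). The labels do not give the deleted exons, and reads outside them count toward the same symbols. YAPTAZ-ECKO 1 was the lowest library for both genes.

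Gja4 transcript was higher in YAPTAZ-ECKO than in WT endothelium in every library. It stood at 3023, 2163, 2291 and 2031 scaled reads in YAPTAZ-ECKO 1 to 4, against 988, 1185, 1187 and 748 in WT 1 to 4. No value of one group fell within the range of the other, and the lowest YAPTAZ-ECKO library lay well above the highest WT library. The means were 2377 ± 444 in YAPTAZ-ECKO and 1027 ± 208 in WT (SD, n = 4 each), a ratio of 2.31. On the log2 scale with a pseudocount, which understates the change of low genes, the difference was 1.12 ± 0.38 (SE), and with any single library left out it was 0.99 to 1.19. These values rest on 1781 to 2976 implied reads per YAPTAZ-ECKO library and 746 to 1609 per WT library. The number of RNA molecules behind these reads is not known, so the counting error was not estimated. In bulk RNA, more cells that make Gja4 and more Gja4 RNA per cell cannot be told apart.

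**Figure D1:**
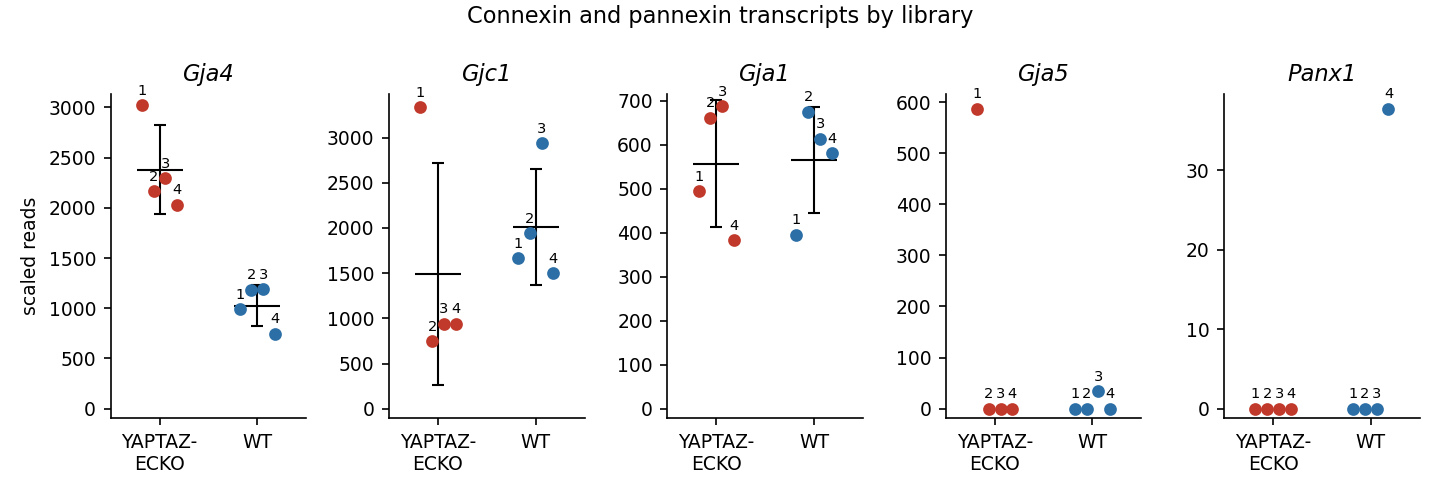
Scaled reads (vertical axes, linear) of Gja4, Gjc1, Gja1, Gja5 and Panx1 in 4 YAPTAZ-ECKO libraries (red) and 4 WT libraries (blue), each point labelled with its replicate number; black bars give the mean ± SD for the first 3 genes. The Gja4 points of YAPTAZ-ECKO (2031 to 3023) all lie above those of WT (748 to 1187), Gjc1 is set apart by YAPTAZ-ECKO 1, and Gja5 and Panx1 are at 0 in most libraries.

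Gjc1 showed the other arrangement in 3 of 4 YAPTAZ-ECKO libraries. It stood at 3334, 744, 942 and 941 scaled reads in YAPTAZ-ECKO 1 to 4, against 1662, 1943, 2939 and 1498 in WT 1 to 4. YAPTAZ-ECKO 1 was the highest of all 8 libraries, while YAPTAZ-ECKO 2, 3 and 4 lay below every WT library. The means were 1490 ± 1233 in YAPTAZ-ECKO and 2011 ± 646 in WT (SD, n = 4 each), with a log2 difference of -0.61 ± 0.44 (SE). Without YAPTAZ-ECKO 1 that difference was -1.05 ± 0.40 (SE), so a single library decides its size.

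Gja1 hardly differed between the groups. It stood at 494, 662, 688 and 384 scaled reads in YAPTAZ-ECKO 1 to 4, against 396, 675, 614 and 581 in WT 1 to 4. Both groups span nearly the same range. The means were 557 ± 144 in YAPTAZ-ECKO and 566 ± 120 in WT (SD, n = 4 each), and the log2 difference was -0.03 with a 95% interval from -1.03 to 0.98. The interval holds changes of up to about that size in either direction. It is no limit of detection, since Gja4, with a difference of 1.12, was not called over all genes either. Connexin 43 is also an astrocyte connexin. Of 10 astrocyte markers, 2 were at 0 in all 8 libraries, Aldh1l1 and Gjb6, which encodes the other main astrocyte connexin, connexin 30. Sox9 was above 0 in 3 YAPTAZ-ECKO and 4 WT libraries, reaching 1095 scaled reads in YAPTAZ-ECKO and 895 in WT, and so was Slc1a2, reaching 221 in YAPTAZ-ECKO and 355 in WT. Slc4a4 was above 0 in 2 YAPTAZ-ECKO and 3 WT libraries, and the other 5 markers in at most 1 YAPTAZ-ECKO and 3 WT libraries. Their part in the Gja1 values was not tested.

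Gja5 and Panx1 were at 0 in most libraries and did not reach the minimum for testing, so 3 of the 5 members entered the fit. Gja5 was listed at 587 scaled reads in YAPTAZ-ECKO 1 and at 0 in YAPTAZ-ECKO 2 to 4, against 34.6 in WT 3 and 0 in WT 1, 2 and 4. The arterial partner of connexin 37 was thus seen in 1 library of each group, and in YAPTAZ-ECKO 1 it stood above Gja1 (494). Of the 2800 genes whose highest YAPTAZ-ECKO value lay within 1.5 times that of Gja5, 5.96% were at 0 in the other 3 YAPTAZ-ECKO libraries. At the lower WT value of Gja5, 64% of 456 genes of like highest value were at 0 in the other 3 WT libraries. Panx1 was listed at 0 in all 4 YAPTAZ-ECKO libraries, against 37.8 in WT 4 and 0 in WT 1, 2 and 3. Of the 513 genes whose highest WT value lay within 1.5 times that of Panx1, 62% were at 0 in the other 3 WT libraries. No fold is given for these genes.

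The rest of the family was close to absent from the tables. Of 18 other connexins and pannexins, 16 were at 0 in all 8 libraries, among them Gjb2, Panx2 and Gjd2 (the main neuronal connexin). Gjc3, an oligodendrocyte connexin, was listed at 1.57 scaled reads in YAPTAZ-ECKO 1 and at 0 elsewhere. Gje1 was listed at 1.58 in YAPTAZ-ECKO 1 and at 16.5 in WT 2. A single read was worth 0.614 to 1.53 scaled reads, and no deposited value lies below 0, so single reads may be listed at 0 in the deeper libraries.

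Set beside each other per length, Gja4 was the leading connexin transcript in all 4 YAPTAZ-ECKO libraries. Without length correction it led only in YAPTAZ-ECKO 2, 3 and 4. Gja4 had 1411 ± 263 scaled reads per kilobase of its longest transcript in YAPTAZ-ECKO and 610 ± 123 in WT (SD, n = 4 each). Gjc1 had 437 ± 361 per kilobase in YAPTAZ-ECKO and 589 ± 189 in WT, and Gja1 had 143 ± 37.0 in YAPTAZ-ECKO and 146 ± 30.9 in WT (SD, n = 4 each). In WT the levels of Gja4 and Gjc1 per kilobase overlapped, from 444 to 704 and from 439 to 861, with Gja4 first in 3 of 4 libraries, and both lay above Gja1. In YAPTAZ-ECKO the range of Gja4 (1205 to 1794) lay above that of Gjc1 (218 to 977), and that of Gjc1 above that of Gja1 (98.7 to 177). The order depends on the length correction. The library kit as labelled leaves the position of the reads along a transcript unsettled, and if every transcript gave reads from its end alone, no correction would apply. Without it, Gjc1 led in all 4 WT libraries and in YAPTAZ-ECKO 1.

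The make-up of the connexin transcripts also differed between the groups. Per kilobase, Gja4 gave 58.7%, 76.8%, 75.0% and 76.3% of the 4 connexins in YAPTAZ-ECKO 1 to 4, against 49.9%, 48.6%, 40.7% and 43.0% in WT 1 to 4. Gjc1 gave 31.9%, 13.0%, 15.2% and 17.5% in YAPTAZ-ECKO 1 to 4, against 41.5%, 39.4%, 49.7% and 42.5% in WT 1 to 4. Both shares were without overlap between the groups, with YAPTAZ-ECKO 1 closest to WT. The ratio of Gja4 to Gjc1 per kilobase was 1.84, 5.89, 4.93 and 4.37 in YAPTAZ-ECKO 1 to 4, against 1.2, 1.24, 0.818 and 1.01 in WT 1 to 4. Without length correction the Gja4 share was 40.6%, 60.6%, 58.4% and 60.5% in YAPTAZ-ECKO 1 to 4, against 32.4%, 31.2%, 24.9% and 26.5% in WT 1 to 4, and the ratio of Gja4 to Gjc1 was 0.907, 2.91, 2.43 and 2.16 in YAPTAZ-ECKO 1 to 4, against 0.594, 0.61, 0.404 and 0.499 in WT 1 to 4. These too did not overlap. Such ratios within a library do not depend on how the libraries were scaled, but they rest on the same Gja4 values that chose the family. The connexin total per kilobase overlapped, at 3058, 1672, 1813 and 1580 in YAPTAZ-ECKO 1 to 4 and 1175, 1446, 1733 and 1032 in WT 1 to 4.

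**Figure D2:**
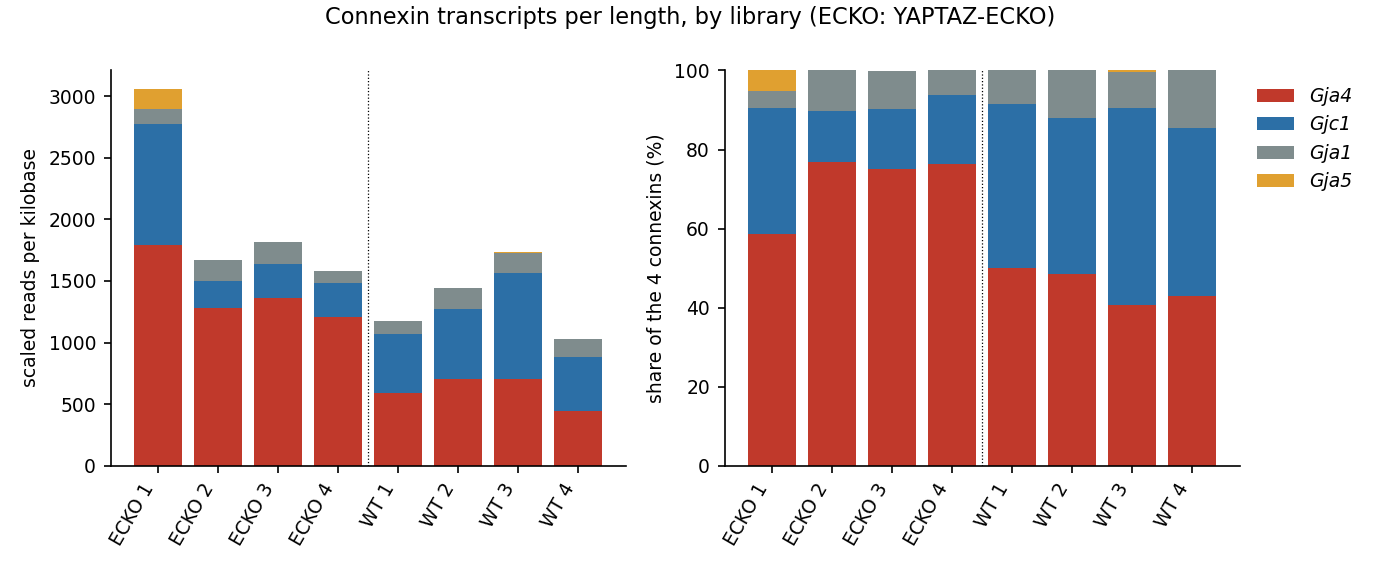
Stacked bars of Gja4 (red), Gjc1 (blue), Gja1 (grey) and Gja5 (yellow) by library, as scaled reads per kilobase of the longest transcript (left) and as a share of the 4 connexins in percent (right), with YAPTAZ-ECKO libraries left of the dotted line and WT libraries right of it. The red share is 58.7% to 76.8% in YAPTAZ-ECKO and 40.7% to 49.9% in WT. Without length correction, not drawn, it is 40.6% to 60.6% in YAPTAZ-ECKO and 24.9% to 32.4% in WT.

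Over all 8706 genes tested with limma, 3 passed a Benjamini-Hochberg adjusted p of 0.05 (0.0345%), all of them lower in YAPTAZ-ECKO: Wwtr1, Camk2d and Bgn. Of the connexins that entered the fit, 0 were among them. The groups did not overlap for 296 tested genes (3.4%), 116 with higher values in YAPTAZ-ECKO (1.33%) and 180 with lower values (2.07%). Of the 3 members in the fit, Gja4 was the only one without overlap. Since Gja4 was chosen for this, its place there shows nothing further. Over all tested genes the log2 difference had a median of -0.09. The SD of Gja4 within groups was 0.26 on the log2 scale, against a median of 0.59 over the 991 genes of like level, but a choice by non-overlap favours a small SD, so this is no trait shown for the gene. The SD of Gja1 was 0.29, against a median of 0.77 over 1995 genes of like level, of which 1.85% varied less. Gjc1, with an SD of 0.70 against a median of 0.58, varied more than that median.

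**Figure D3:**
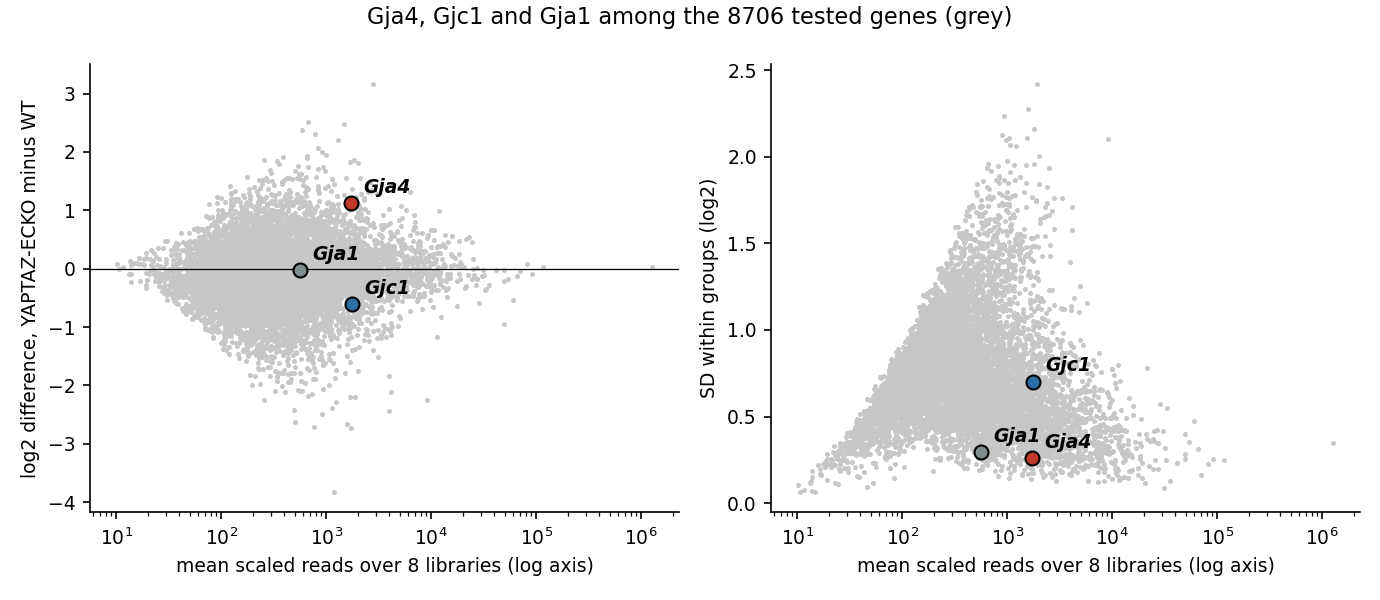
Each tested gene (grey) by its mean scaled reads over 8 libraries (horizontal, log axis) against its log2 difference, YAPTAZ-ECKO minus WT (left), and its SD within groups on the log2 scale (right), with Gja4, Gjc1 and Gja1 marked. Gja4 lies at 1.12 among genes that reach larger differences in either direction, and its SD of 0.26, which choosing it by non-overlap favours, lies below that of Gjc1 (0.70).

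The genes whose pattern over the 8 libraries was most like that of Gja4 were Nckap1, Timp3, Cxx1a, Pgrmc2 and Sh3kbp1, with Pearson correlations of 0.961, 0.961, 0.945, 0.93 and 0.929 among the 3505 genes that averaged 500 scaled reads or more. All 5 had higher values in YAPTAZ-ECKO without overlap, and 8 points in 2 separate groups give high correlations to any gene that differs likewise. Nckap1, which encodes a subunit of the WAVE complex of actin assembly, stood at 2872, 2535, 2290 and 1965 scaled reads in YAPTAZ-ECKO 1 to 4, against 1369, 1080, 1294 and 790 in WT 1 to 4. Timp3, an inhibitor of metalloproteases, averaged 2182 ± 315 in YAPTAZ-ECKO and 965 ± 310 in WT (SD, n = 4 each). Pgrmc2, a heme-binding membrane protein gene, averaged 1319 ± 300 in YAPTAZ-ECKO and 626 ± 171 in WT (SD, n = 4 each). Cxx1a, which has near-identical copies that may share its reads, averaged 2162 ± 209 in YAPTAZ-ECKO and 1189 ± 284 in WT (SD, n = 4 each). Sh3kbp1, which encodes an endocytosis adaptor, averaged 4968 ± 1850 in YAPTAZ-ECKO and 664 ± 698 in WT (SD, n = 4 each).

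Arterial genes and the Notch, SOX and KLF factors that act on them gave no call. Of 29 listed genes 28 were tested, 0 rose and 0 fell (limma, adjusted p of at least 0.861), against 0.0345% of all tested genes called. With so few calls over all genes, a list of this size would mostly hold 0. In YAPTAZ-ECKO 13 were at higher and 15 at lower values. The median log2 difference was -0.07, against -0.09 over all tested genes. Their groups overlapped for all 28 tested genes, beside 3.4% of all tested genes without overlap. Acvrl1, which encodes the BMP receptor ALK1, stood at 19715, 8035, 10326 and 15340 scaled reads in YAPTAZ-ECKO 1 to 4, against 9153, 6348, 9052 and 7465 in WT 1 to 4. Its groups overlapped, with a difference of 0.66 ± 0.28 (SE) on the log2 scale. Unc5b, which encodes a netrin receptor, averaged 9974 ± 3706 in YAPTAZ-ECKO and 6477 ± 2327 in WT. Sox17, an arterial transcription factor, averaged 12479 ± 3451 in YAPTAZ-ECKO and 8811 ± 2182 in WT (SD, n = 4 each). Among Notch genes, the ligand Dll4 averaged 1360 ± 949 in YAPTAZ-ECKO and 1366 ± 330 in WT (SD, n = 4 each), and the effector Hey2 was above 0 in 1 library.

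Genes for connexin partners and turnover, 17 of 18 of them tested, also gave 0 rises and 0 falls (limma, adjusted p of at least 0.737). Over all tested genes 0.0345% were called. The median log2 difference of the list was 0.00. Csnk1d, a casein kinase known to phosphorylate connexin 43, was 1 of 17 without overlap between the groups, beside 3.4% of all tested genes. Its level was 5785, 11577, 5231 and 5124 scaled reads in YAPTAZ-ECKO 1 to 4, against 3891, 3558, 3848 and 2884 in WT 1 to 4. YAPTAZ-ECKO 2 was the highest by far, and the difference of 0.86 ± 0.31 (SE) on the log2 scale did not pass (limma, adjusted p = 0.737). Tjp1, which encodes the connexin scaffold ZO-1, averaged 3249 ± 1879 in YAPTAZ-ECKO and 3163 ± 1844 in WT (SD, n = 4 each). Dbn1, which encodes the actin-binding partner drebrin, averaged 1616 ± 652 in YAPTAZ-ECKO and 1204 ± 806 in WT (SD, n = 4 each). Cnst, which encodes the connexin trafficking protein consortin, was above 0 in 1 YAPTAZ-ECKO library and 3 WT libraries.

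Most genes of ATP signalling were too low for the test. Of 11 purinergic genes 8 were above 0 in at least 1 library, 3 were tested and 0 passed (limma, adjusted p of at least 0.99), against 0.0345% of all tested genes. Their median log2 difference was 0.06. Adora2a, a gene for an adenosine receptor, averaged 3973 ± 850 scaled reads in YAPTAZ-ECKO and 3272 ± 591 in WT. Entpd1, an enzyme gene of extracellular ATP breakdown, averaged 765 ± 771 in YAPTAZ-ECKO and 560 ± 503 in WT, and the ATP-gated channel gene P2rx7 averaged 276 ± 220 in YAPTAZ-ECKO and 447 ± 260 in WT (SD, n = 4 each). Of 13 other large-pore channel genes 5 were above 0 in at least 1 library, 4 were tested and 0 passed (limma, adjusted p of at least 0.99), against 0.0345% of all tested genes. The median log2 difference of these channel genes was -0.08. Lrrc8a, the required subunit of volume-regulated anion channels, averaged 478 ± 304 in YAPTAZ-ECKO and 369 ± 144 in WT (SD, n = 4 each). Lrrc8c averaged 102 ± 203 in YAPTAZ-ECKO and 104 ± 78.1 in WT, and Calhm2 averaged 33.3 ± 37.1 in YAPTAZ-ECKO and 106 ± 111 in WT (SD, n = 4 each).

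Of 8 genes of endothelial conduction and nitric oxide 3 were tested and 0 passed (limma, adjusted p of at least 0.98), against 0.0345% of all tested genes. All 3 were at higher values in YAPTAZ-ECKO, with a median log2 difference of 0.18. Nos3, the endothelial nitric oxide synthase gene, averaged 3471 ± 1298 scaled reads in YAPTAZ-ECKO and 2948 ± 727 in WT (SD, n = 4 each). Kcnj2, which encodes an inward rectifier potassium channel, averaged 1342 ± 671 in YAPTAZ-ECKO and 1241 ± 490 in WT (SD, n = 4 each). Hba-a1, an alpha globin gene also listed as a red cell marker, averaged 12347 ± 5805 in YAPTAZ-ECKO and 7447 ± 3591 in WT (SD, n = 4 each).

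**Figure D4:**
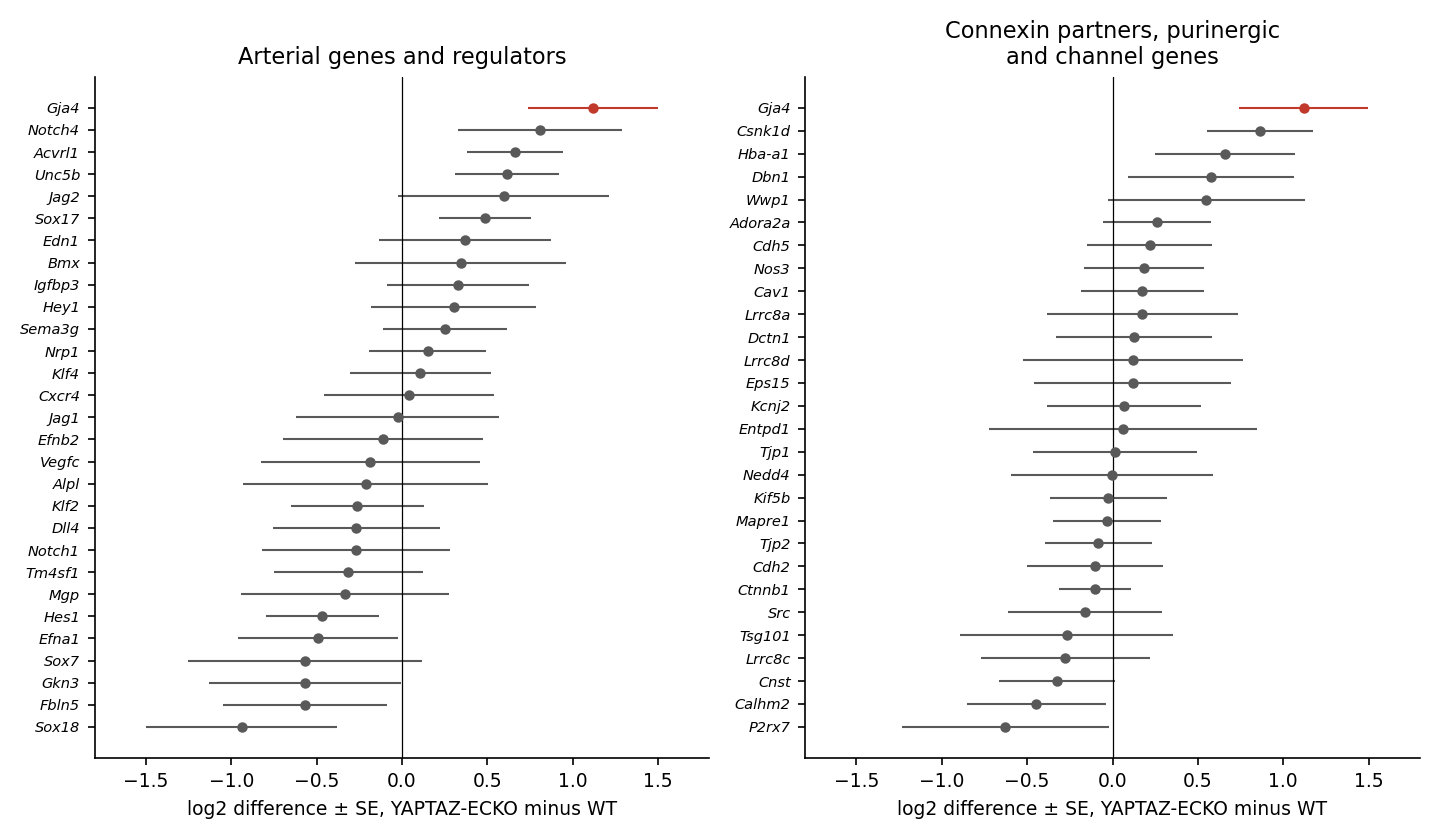
Log2 difference ± SE (horizontal axis, YAPTAZ-ECKO minus WT, with the pseudocount of the fit) of the tested arterial genes (left) and of the tested genes for connexin partners, purinergic signalling, other large-pore channels and conduction (right), sorted, with Gja4 in red for comparison. Gja4 (1.12) stands at the top of both panels by the way it was chosen, and the others spread to both sides of 0.

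Because connexins mark cell types, the markers of other cells were summed per library. The 10 endothelial markers, led by Cldn5 and Esam, summed to 84822 to 114802 scaled reads in YAPTAZ-ECKO against 85234 to 101534 in WT. By these levels the labelled cell type was present throughout. The test compares the groups only and did not tell their sums apart (exact permutation p = 0.6, adjusted 0.6). Mural cell markers, which matter for Gja4 and Gjc1 because smooth muscle cells also make these connexins, summed to 156 to 1248 in YAPTAZ-ECKO and 413 to 1821 in WT. Of these 12 markers only Anpep was at 0 in every library, Myh11 was above 0 in 1 library, and the most abundant were Rgs5 and Abcc9. Mural cell sums averaged 656 ± 482 in YAPTAZ-ECKO and 1059 ± 663 in WT (SD, n = 4 each; two-sided exact permutation p = 0.343, adjusted over the 8 marker lists 0.424), and their part in the Gja4 and Gjc1 values was not tested. Astrocyte markers, led by Sox9 and Slc4a4, summed to 3.14 to 1482 in YAPTAZ-ECKO, against 1102 to 1765 in WT (exact permutation p = 0.371, adjusted 0.424).

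Neuronal markers, led by Rbfox3 and Stmn2, summed to 1896, 218, 17.6 and 879 scaled reads in YAPTAZ-ECKO 1 to 4, against 103, 347, 15.6 and 5.97 in WT 1 to 4 (exact permutation p = 0.2, adjusted 0.424). YAPTAZ-ECKO 1 was the highest here too, as it was for Gja4, Gjc1 and Gja5, and the part of this in the result was not tested. Of these 7 markers Syt1 and Gjd2 were at 0 throughout. Erythroid markers, led by Hba-a1 and Hba-a2 with identical values, summed to 9039 to 30071 in YAPTAZ-ECKO, with 8816 to 24966 for WT (exact permutation p = 0.286, adjusted 0.424). Oligodendrocyte lineage markers, led by Mbp and Cnp, summed to 165 to 1283 in YAPTAZ-ECKO, with 1.99 to 522 for WT (exact permutation p = 0.171, adjusted 0.424). Microglial and leukocyte markers, led by Cx3cr1 and Csf1r, reached 130 in YAPTAZ-ECKO and 161 in WT, and fibroblast markers, led by Col1a1 and Dcn, reached 179 in YAPTAZ-ECKO and 266 in WT (exact permutation p = 0.371 and 0.257, adjusted 0.424 for both). With 4 libraries against 4 the smallest such p is 0.0286.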

How the data were processed

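The authors deposited 1 table per library with 24421 gene symbols and a log2 value each. Per the submitters' processing notes, Bowtie2, edgeR and the mm10 build were used; the sources used here do not give versions, the counting tool, the annotation or the strand setting. Per the labels' protocols, 500 ng of total RNA went into a Lexogen Quant-Seq library. From the values, the tables were read as log2 of scaled read counts, and the 24394 symbols found once in every table were used. The reads behind each library were inferred from the spacing of values under 12, of which 89.8% to 100% lay within 0.1 of a whole multiple.

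Genes reaching 10 scaled reads in 4 libraries or more were tested with limma 3.58.1 (R 4.3.3; trended, robust) on log2(scaled reads + 128) with no covariates and Benjamini-Hochberg adjustment. Marker sums, in which globin genes of identical values count once, were compared by exact permutation tests. Lengths and coordinates are from GENCODE M21. Genes of like level have a mean within 1.5 times. The members, lists and settings were chosen with earlier results of these data known. Named beside the members were the 3 genes of lowest p per list, the 2 most abundant markers per cell type, the called genes and the 5 genes most like Gja4; Tjp1, Dll4, Hey2, Gje1, Gjc3 and the family members and markers at or near 0 were added after their values were seen. Other pseudocounts, scalings and filters, voom, a replicate block and the omission of each library were tried. Tested on simulated data with known changes, the fit called a minority of the changed genes, none in the wrong direction, and a few unchanged ones. The noise of the simulated data was assumed, not estimated from these libraries, so this is no measure of the fit's power here. A gene without a call may still differ. Shares without length correction were added after the values were seen.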

Additional observations from a re-analysis of the deposited data

Results flagged for a closer look

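A library far from the other 3 of its group was found in 21 of 90 sets of 4 values. The chance rate of about 1 in 20 holds for normally distributed values. A set with 0 in 3 libraries and a value above 0 in the other is flagged whatever its size. The count of 21 can therefore not be set against that rate. Gjc1 in YAPTAZ-ECKO was set apart by YAPTAZ-ECKO 1 at 3334 scaled reads, against 744 to 942 in the other 3, and the connexin total of that library, 3058 scaled reads per kilobase, stood apart from 1580 to 1813. Gja5 was flagged for 587 in YAPTAZ-ECKO 1 and 34.6 in WT 3, and Panx1 for 37.8 in WT 4, each with 0 in the other 3 libraries.

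Csnk1d stood at 11577 in YAPTAZ-ECKO 2, against 5124 to 5785 in the other 3. Lrrc8c and Cnst were above 0 only in YAPTAZ-ECKO 3 of that group, at 406 and 86.0. Among marker genes in YAPTAZ-ECKO, Abcc9 (767) and Mbp (1067) stood out in YAPTAZ-ECKO 2, Rgs5 (418) in YAPTAZ-ECKO 3, Stmn2 (520) in YAPTAZ-ECKO 1, and Col1a1 (179) and Csf1r (130) in YAPTAZ-ECKO 4, where they also set apart the fibroblast sum (179) and the microglial and leukocyte sum (130). In WT, Abcc9 (326), Slc4a4 (787) and Csf1r (53.0) stood out in WT 1, Dcn (225) in WT 2 and Col1a1 (266) in WT 4.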

How the results depend on the processing

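Gja4 was chosen for groups without overlap, so no omission of a library and no pseudocount could turn the sign of its difference. The log2 difference of Gja4 kept its sign under all 9 alternative settings and all 8 omissions of a library. It lay at 0.91 with the largest pseudocount, at 1.22 with a pseudocount of 1 and at 0.99 to 1.19 without 1 library; it was 1.12 with the replicate number as a block. The difference of Gjc1 was -1.05 to -0.39 without 1 library, and that of Gja1 -0.16 to 0.10. The 3 calls over all genes became 0 with a pseudocount of 1, with no filter and with voom (419, 600 and 479 genes at an unadjusted p under 0.05), 5 with the replicate block, and 0 to 6 without 1 library (1 without WT 1, 0 without WT 2, 6 without YAPTAZ-ECKO 3); the cause was not tested. Same-numbered libraries did not deviate together (r from -0.04 to 0.08), so the numbers were not taken as pairs. Of the partner, channel and arterial list genes, 0 were called in any of the 17 settings. Without length correction, Gjc1 over Gja4 was 0.627 in YAPTAZ-ECKO and 1.96 in WT, against 0.309 and 0.967 per kilobase. A read is worth 0.614 to 1.53 scaled reads, and low genes were often at 0 in some libraries, which limits Panx1 and the WT values of Gja5 most. In YAPTAZ-ECKO 1 Gja5 was not low, at 587 scaled reads. Of 2800 genes of like highest value, 5.96% were at 0 in the other 3 YAPTAZ-ECKO libraries. Why Gja5 was at 0 there was not tested.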
